A study of Mus musculus with 2 samples.

Results

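This account concerns 36 genes of the Fanconi anemia pathway, of DNA crosslink repair and of homologous recombination, in MC3T3-E1 cells, a clonal pre-osteoblast line derived from newborn mouse calvaria. The genes were chosen by name, as a list of pathway members, and all 36 were found by their mouse symbol among the 17215 genes of the deposited tables. One culture received formaldehyde at 100 µM and the other at 300 µM. Each dose is represented by 1 library, the labels do not give the length of exposure, and untreated cells were not analysed here. Both groups share the cell line and the culture medium with serum, and the cells are 1 line, so nothing here extends to bone tissue. Without replicates, the differences below have no measured error between cultures, and no p-value was computed.

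Formaldehyde joins proteins to DNA and can link the strands of the double helix to each other. In the Fanconi pathway, FANCM recognises a replication fork stalled at such a crosslink and anchors the core complex, whose RING subunit FANCL works with the E2 enzyme UBE2T to ubiquitinate FANCD2 and FANCI. Nucleases gathered on the scaffold SLX4 then cut beside the crosslink, translesion polymerases copy past the remnant, and homologous recombination restores the broken strand. SPRTN, a replication-coupled protease, degrades proteins crosslinked to DNA.

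The cells were checked against markers of osteoblasts and of other cell types. Of 10 osteoblast genes, 1 was under 1 FPKM in both libraries (Bglap, osteocalcin, listed at 0 and 0.49 FPKM), and their summed level was 4710 FPKM at 100 µM and 4215 FPKM at 300 µM, most of it from the collagen I genes. FPKM counts fragments relative to the length of the transcript in kb and to the mapped total of the library. Alpl, the alkaline phosphatase of mineralising osteoblasts, stood at 0.98 and 1.06 FPKM, so this defining marker of mature osteoblasts was near 1 FPKM. Endothelial, epithelial and adipocyte markers summed to between 0 and 0.56 FPKM in each library, with all of their measured genes under 1 FPKM. The 6 macrophage and blood genes summed to 16.2 and 27.7 FPKM, mostly from Lyz2 (13.2 and 26.5 FPKM), while Adgre1 and Hbb-bs were at 0. The part of such cells in the results was not tested. The low values of the tables correspond to about 18500000 mapped fragments at 100 µM and 19000000 at 300 µM.

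The repair genes were expressed at low levels, and they differed between the doses in both directions. Of the 36 genes, 29 were under 10 FPKM in both libraries. Their levels ran from 0.87 FPKM (Fancc) to 30.2 FPKM (Ercc1) at 100 µM and from 0.28 FPKM (Palb2) to 50.1 FPKM (Ercc1) at 300 µM. Below, the ratio of a gene is log2((FPKM at 300 µM + 1)/(FPKM at 100 µM + 1)), and the comparison took in genes whose 2 libraries averaged 1 FPKM or more, 34 of the 36. Fan1 and Palb2 were below that mean and were not called, although the counting intervals and the signs over settings given below include them. The added 1 understates the difference of low genes.

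At 300 µM, Fancl, Fancc and Nbn were 2-fold or more higher, 3 of the 34 genes, and 11 were lower by that much. These shares, 8.82% and 32.4%, lie beside 6.09% higher and 29.8% lower among all 10123 genes compared. The member counts are thus close to the background, and the balance of higher and lower genes is not a result about repair genes. The median ratio of the 34 genes was -0.48, against -0.30 for all genes compared. Centring the ratios on that of the median gene gave 7 higher and 7 lower members, beside 14.5% and 22.3% of all genes. With both libraries scaled to equal sums, 2 were higher and 17 lower, beside 2.76% and 40.5%. Within most steps of the pathway, genes of 1 complex lay on opposite sides. Among all genes compared, 4089 had a ratio above 0 and 6028 below, so opposite signs are common between any genes. Whether partners differ in sign more often than other genes was not tested. In these bulk libraries, fewer cells of a type and less RNA per cell cannot be told apart.

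**Figure D1:**
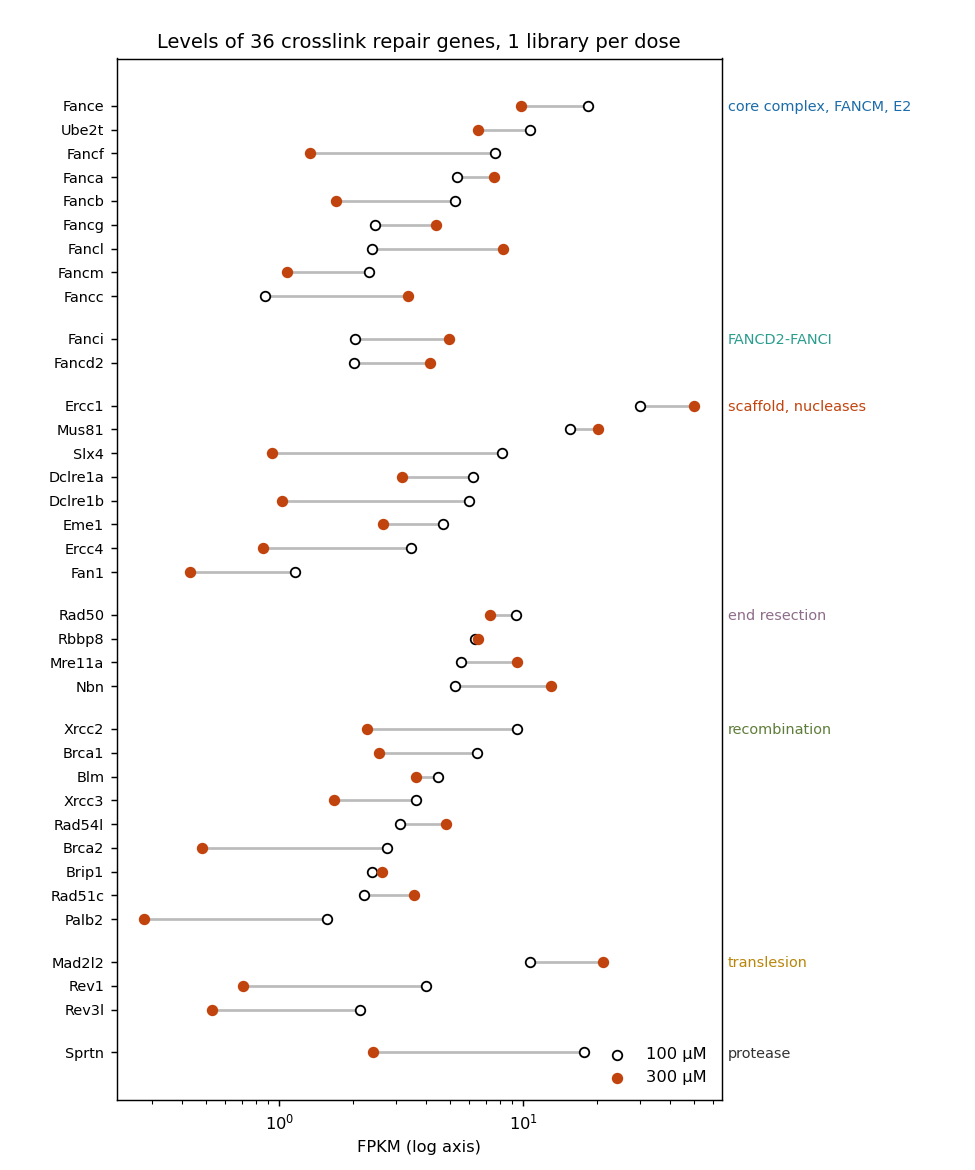
Level of each of the 36 genes in FPKM (log axis) at 100 µM (open circles) and 300 µM (filled circles), 1 library per dose, ordered by role and by level at 100 µM. Ercc1 was the most abundant in both libraries (30.2 and 50.1 FPKM), and the longest lines belong to Slx4 and Sprtn, both lower at 300 µM.

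Within the core complex, the ubiquitin ligase and its partners, genes at opposite ends of the range stood side by side. Fancl, the catalytic RING subunit, had 2.40 FPKM at 100 µM and 8.28 at 300 µM, a ratio of 1.45 that exceeded 98.3% of all genes compared. Fancc, a core complex subunit that binds FANCE and FANCF, had 0.87 FPKM at 100 µM and 3.38 at 300 µM (ratio 1.23). Both were higher at 300 µM, and these were the highest ratios of all the members. The 15.6% of Fancl words (runs of 50 bases) that also occur on the opposite strand of Vrk2 cannot be assigned without a stated strand, and Vrk2 itself stood at 2.0 and 5.46 FPKM.

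Fancf, the adaptor that holds the complex together, lay at the other end. It had 7.66 FPKM at 100 µM and 1.33 at 300 µM, a ratio of -1.89. Fancb, an X-linked subunit that works directly with FANCL, had 5.25 FPKM at 100 µM and 1.71 at 300 µM, a ratio of -1.21. Fance, which binds FANCD2, had 18.5 FPKM at 100 µM and 9.74 at 300 µM (ratio -0.86). FANCC, FANCE and FANCF form 1 subcomplex, yet Fancc was higher and the other pair lower at 300 µM. FANCB and FANCL likewise sit in 1 catalytic module, and their ratios had opposite signs.

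The remaining genes of this step were within 2-fold on the scale used. Fanca, which pairs with FANCG, had 5.35 FPKM at 100 µM and 7.59 at 300 µM (ratio 0.44). Fancg had 2.47 FPKM at 100 µM and 4.40 at 300 µM (ratio 0.64). This pair thus lay on the same side, higher at 300 µM. Fancm, the DNA translocase that anchors the complex, had 2.33 FPKM at 100 µM and 1.08 at 300 µM (ratio -0.68). Ube2t, the E2 enzyme, had 10.7 FPKM at 100 µM and 6.55 at 300 µM (ratio -0.63). Of the 9 genes, 2 (22.2%) were higher by 2-fold or more, 2 (22.2%) lower by as much and 5 between, with a median ratio of -0.63. Among all genes compared, 6.09% were higher and 29.8% lower, with a median of -0.30. The signs of 8 of the 9 genes were the same in each of 7 settings. The settings were the given values, pseudocounts of 0.1 and 5, centring, equal sums, TMM scaling, and removal of the length and GC content trend. Fancm turned to 0.02 in the last of these. A pseudocount cannot change a sign, so the same sign in all 7 settings is a weak check.

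The promoters of Fancf, Fancl and Fancc are shown because these genes mark the extremes of the core complex. They are the 250 bases before the gene start, 5′ to 3′ on the gene's strand, from RefSeq, build GRCm38.p6, in lower case with the CCAAT box (CCAAT, or ATTGG on the other strand) in capitals. The annotated start may not be the one these cells use.
Fancf promoter (chr7:51862268-51862517, minus strand): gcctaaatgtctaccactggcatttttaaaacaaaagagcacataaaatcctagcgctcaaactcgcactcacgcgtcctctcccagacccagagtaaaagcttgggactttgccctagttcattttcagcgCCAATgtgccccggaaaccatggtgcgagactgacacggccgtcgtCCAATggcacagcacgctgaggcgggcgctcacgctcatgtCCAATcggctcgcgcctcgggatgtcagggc
Fancl promoter (chr11:26386834-26387083, plus strand): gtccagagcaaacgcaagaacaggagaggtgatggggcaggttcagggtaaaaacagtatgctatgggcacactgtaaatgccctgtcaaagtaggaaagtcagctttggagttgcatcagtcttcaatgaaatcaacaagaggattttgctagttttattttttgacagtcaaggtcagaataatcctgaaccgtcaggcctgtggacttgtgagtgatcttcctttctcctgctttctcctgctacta
Fancc promoter (chr13:63431746-63431995, minus strand): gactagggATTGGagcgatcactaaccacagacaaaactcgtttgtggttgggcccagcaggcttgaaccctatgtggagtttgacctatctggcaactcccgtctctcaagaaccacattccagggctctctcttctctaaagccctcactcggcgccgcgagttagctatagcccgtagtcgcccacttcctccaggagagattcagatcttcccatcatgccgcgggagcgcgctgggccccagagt
The Fancf window held 3 CCAAT boxes, that of Fancc 1 and that of Fancl 0. A promoter was found for 30 of the 36 members, and 16 of these (53.3%) held a CCAAT box, against 41.2% of the 8238 compared genes with a promoter. Genes with a box were found on both sides, among them Fancc (ratio 1.23), Fancf (-1.89) and Slx4 (-2.25). The E2F words TTTCCCGC, TTTCGCGC, TTTGCCGC and TTTGGCGC, searched on both strands, occurred in 2 member promoters (6.67%, Brca2 and Fancg) and in 4.31% of all. The ETS word CCGGAAG occurred in 4 (13.3%, against 17.5%), and the cell cycle homology word TTTGAA in 1 (3.33%, against 12.6%). No word contains another, and a match describes the letters only.

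The substrates of the core complex stood together on the higher side. Fancd2 had 2.02 FPKM at 100 µM and 4.15 at 300 µM, a ratio of 0.77. Fanci had 2.04 FPKM at 100 µM and 4.96 at 300 µM, a ratio of 0.97. The 2 genes, whose proteins clamp DNA as a dimer, had nearly equal levels within each library. Both ratios were positive in each of the 7 settings, and both passed 2-fold in 4 of them. With the trend of exon density removed, described further on, they came to 0.15 (Fancd2) and 0.34 (Fanci). Without the pseudocount the log2 ratio of Fanci was 1.28, with a 95% counting interval of 1.03 to 1.55, and that of Fancd2 1.04 (0.80 to 1.29). These intervals come from estimated reads and cover counting error only, not variation between cultures.

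**Figure D2:**
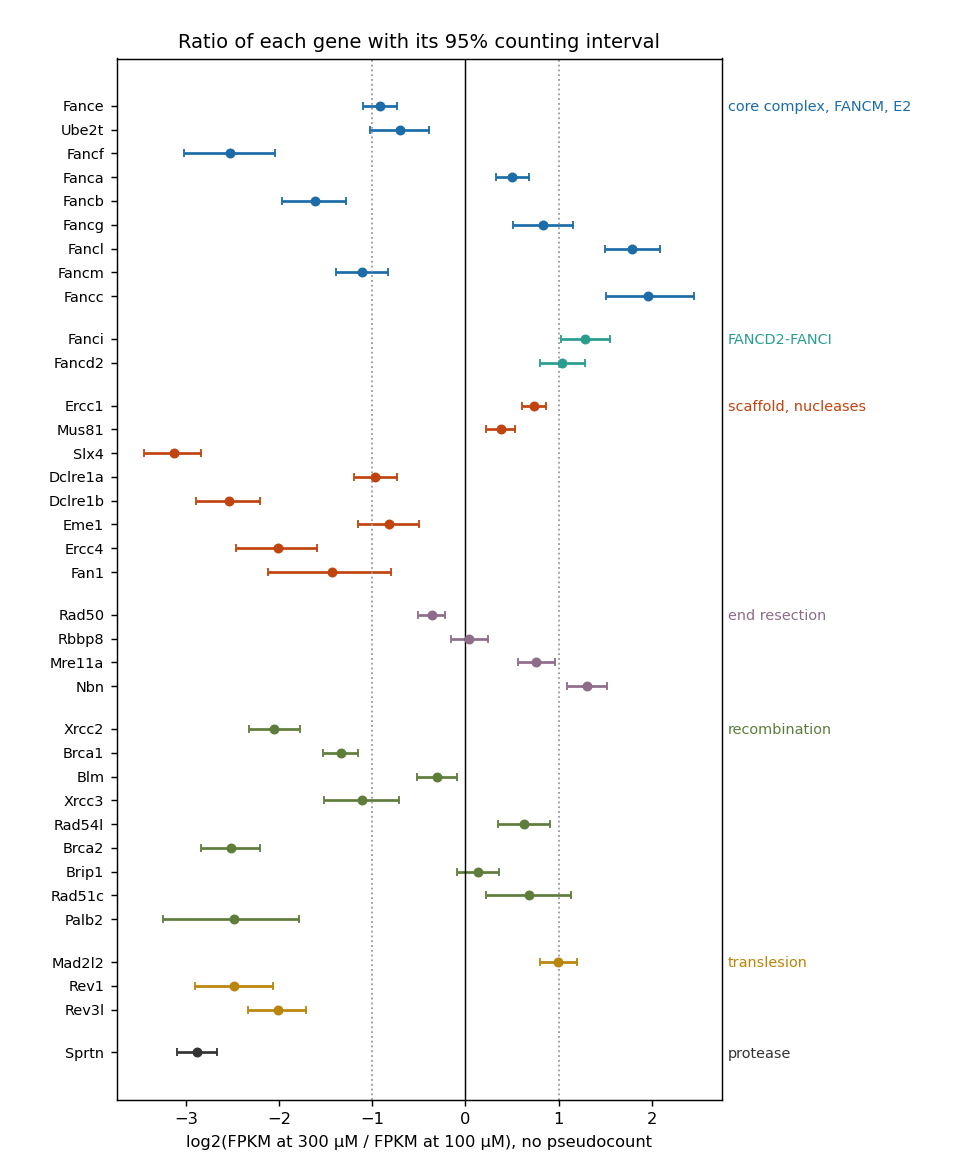
Log2 of the ratio of FPKM at 300 µM to FPKM at 100 µM for each of the 36 genes, without a pseudocount; bars are exact 95% counting intervals from estimated reads, and dotted lines mark 2-fold. The bars of Rbbp8 and Brip1 cross 0, 13 lie wholly above it and 21 wholly below. Such intervals were not computed for all genes.

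Among the nucleases the scaffold gene showed the largest difference. Slx4, whose protein docks structure-specific nucleases at crosslinks, had 8.17 FPKM at 100 µM and 0.93 at 300 µM, an 8.78-fold difference (ratio -2.25). Dclre1b (Apollo), a 5′ exonuclease of telomeres and crosslink repair, had 5.98 FPKM at 100 µM and 1.03 at 300 µM (ratio -1.78). Dclre1a (SNM1A), the related exonuclease that digests past a crosslink, had 6.20 FPKM at 100 µM and 3.17 at 300 µM (ratio -0.79). All 3 were lower at 300 µM, and Slx4 was at least 2-fold lower in each of the 7 settings.

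The obligate nuclease dimers split. Ercc1, the non-catalytic partner of XPF, had 30.2 FPKM at 100 µM and 50.1 at 300 µM (ratio 0.71). Ercc4, which encodes the catalytic partner XPF, had 3.48 FPKM at 100 µM and 0.86 at 300 µM (ratio -1.27). FPKM is per length, so these levels can be compared between genes: Ercc1 was the more abundant in both libraries. Mus81, the catalytic subunit of the other dimer, had 15.6 FPKM at 100 µM and 20.3 at 300 µM (ratio 0.36). Its partner Eme1 had 4.70 FPKM at 100 µM and 2.66 at 300 µM (ratio -0.64). In both dimers the more abundant partner was higher at 300 µM and the less abundant partner lower, with the same signs in each of the 7 settings, although Mus81 came to 0.0046 at equal sums. Fan1, a crosslink nuclease recruited by ubiquitinated FANCD2, was not compared (1.16 FPKM at 100 µM and 0.43 FPKM at 300 µM). Of the 7 nuclease and scaffold genes compared, 3 (42.9%) were at least 2-fold lower and 0 higher, with a median ratio of -0.79. Beside these stand 29.8% lower and 6.09% higher among all genes compared, with a median of -0.30. ERCC1 and XPF also serve nucleotide excision repair.

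The promoters of the ERCC1-XPF pair are shown because their products form 1 enzyme and their ratios differ in sign, with the same source and marking as above.
Ercc1 promoter (chr7:19344821-19345070, plus strand): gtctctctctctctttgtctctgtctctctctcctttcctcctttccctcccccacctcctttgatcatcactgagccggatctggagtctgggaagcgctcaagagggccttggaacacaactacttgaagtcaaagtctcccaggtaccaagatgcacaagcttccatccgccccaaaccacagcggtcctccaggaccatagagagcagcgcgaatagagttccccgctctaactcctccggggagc
Ercc4 promoter (chr16:13109486-13109735, plus strand): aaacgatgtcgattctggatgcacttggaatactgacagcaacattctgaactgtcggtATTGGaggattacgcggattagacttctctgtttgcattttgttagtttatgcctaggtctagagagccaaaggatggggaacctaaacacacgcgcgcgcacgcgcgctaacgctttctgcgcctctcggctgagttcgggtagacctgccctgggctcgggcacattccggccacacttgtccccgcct
The Ercc4 window held 1 CCAAT box and the Ercc1 window 0, and neither held an E2F word.

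The genes of DNA end resection were, as reported, the other step with most members on the higher side. Nbn, which encodes the NBS1 subunit that brings the MRN complex to breaks, had 5.27 FPKM at 100 µM and 13.0 at 300 µM (ratio 1.16). Mre11a, the nuclease subunit, had 5.55 FPKM at 100 µM and 9.41 at 300 µM (ratio 0.67). Rad50, the ATPase subunit that tethers DNA ends, had 9.37 FPKM at 100 µM and 7.29 at 300 µM (ratio -0.32). The 3 genes of this complex therefore changed their order: Rad50 was the highest at 100 µM and the lowest at 300 µM. Rbbp8 (CtIP), which starts resection with MRN, had 6.34 FPKM at 100 µM and 6.53 at 300 µM (ratio 0.04). The counting interval of Rbbp8 included no difference (-0.16 to 0.24 without the pseudocount). The signs of Rad50 and Rbbp8 depended on the scale: Rad50 ranged from -0.69 to 0.11 over the 7 settings and Rbbp8 from -0.30 to 0.39. Of the 4 genes, 1 was at least 2-fold higher and 0 lower, with a median ratio of 0.35, or 0.03 at equal sums. Over all genes compared, 6.09% were higher and 29.8% lower, and these medians were -0.30 and -0.67. With the trend of exon density removed, described further on, 2 of the 4 were above 0 and 2 below. None passed 2-fold, and their median was then -0.05, against -0.36 for all genes.

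In homologous recombination the BRCA genes were lower at 300 µM and several other genes were not. Brca1, a ubiquitin ligase that promotes resection, had 6.45 FPKM at 100 µM and 2.55 at 300 µM (ratio -1.07). Brca2, a mediator of strand exchange, had 2.75 FPKM at 100 µM and 0.48 at 300 µM, a 5.73-fold difference (ratio -1.34). Palb2, the bridge between BRCA1 and BRCA2, was not compared and had 1.57 FPKM at 100 µM and 0.28 at 300 µM. All 3 genes of this chain were thus lower at 300 µM, in each of the 7 settings. Palb2 was below the mean set for comparison, with about 20 estimated reads at 300 µM. Removal of the trend with length and GC content brought Brca2 to -0.41, and Brca1 was at least 2-fold lower in 3 of the 7 settings.

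Xrcc2, Xrcc3 and Rad51c, further mediators of recombination, went separate ways. Xrcc2 had 9.45 FPKM at 100 µM and 2.28 at 300 µM (ratio -1.67). Xrcc3 had 3.62 FPKM at 100 µM and 1.67 at 300 µM (ratio -0.79). Rad51c, the partner of XRCC3, had 2.22 FPKM at 100 µM and 3.55 at 300 µM (ratio 0.50). Rad51c was therefore on the higher side and both XRCC genes on the lower, in each of the 7 settings. Rad54l, a motor protein of strand invasion, had 3.12 FPKM at 100 µM and 4.83 at 300 µM (ratio 0.50). The helicase genes differed little: Brip1 (FANCJ), which partners BRCA1, stood at 2.40 and 2.63 FPKM (ratio 0.09). Blm, the Bloom syndrome helicase, had 4.47 FPKM at 100 µM and 3.62 at 300 µM (ratio -0.24). The sign of both helicase genes flipped with the scale, Brip1 between -0.20 and 0.75 and Blm between -0.59 and 0.15. Of the 8 recombination genes compared, 3 (37.5%) were at least 2-fold lower and 0 higher, with a median ratio of -0.52. The shares over all genes compared were 29.8% lower and 6.09% higher, with a median of -0.30.

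Translesion synthesis again divided by subunit. Rev1, the scaffold polymerase that recruits the others, had 3.98 FPKM at 100 µM and 0.71 at 300 µM (ratio -1.54). Rev3l, the catalytic subunit of polymerase zeta, had 2.14 FPKM at 100 µM and 0.53 at 300 µM (ratio -1.04). Mad2l2 (REV7), the accessory subunit that links REV3L to REV1, had 10.7 FPKM at 100 µM and 21.3 at 300 µM (ratio 0.93). The catalytic and scaffold genes were lower and the accessory gene higher, in each of the 7 settings. Rev3l was at least 2-fold lower in 3 of them and came to -0.11 with the trend of length and GC content removed. Of Rev1's words, 22.8% occur on the opposite strand of Eif5b, which stood at 24.3 and 11.9 FPKM, so reads of the pair cannot be told apart there.

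Sprtn, the protease of DNA-protein crosslinks, had the lowest ratio of all members. It had 17.8 FPKM at 100 µM and 2.42 at 300 µM, a 7.36-fold difference and a ratio of -2.46. Only 4.15% of all genes compared had a lower ratio. At 100 µM only Ercc1 and Fance stood higher among the 36, whereas at 300 µM 22 of the other members did. Without the pseudocount its log2 ratio was -2.88 with a 95% counting interval of -3.09 to -2.67, on about 1471 and 206 estimated reads. Sprtn was at least 2-fold lower in each of the 7 settings, as were Slx4 and Fancf and no other member. That count was not made for all genes, of which 29.8% were at least 2-fold lower as reported. With the trend of exon density removed, described further on, Sprtn came to -1.80, Slx4 to -2.15 and Fancf to -0.82. The Sprtn promoter is shown because this gene had the lowest ratio, with the same source and marking as above. None of the searched words occurred in it.
Sprtn promoter (chr8:124897644-124897893, plus strand): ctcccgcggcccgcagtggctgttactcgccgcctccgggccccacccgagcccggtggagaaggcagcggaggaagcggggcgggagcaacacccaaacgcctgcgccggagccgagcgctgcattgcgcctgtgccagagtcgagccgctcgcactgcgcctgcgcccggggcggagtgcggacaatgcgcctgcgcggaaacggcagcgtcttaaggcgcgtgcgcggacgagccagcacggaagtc

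**Figure D3:**
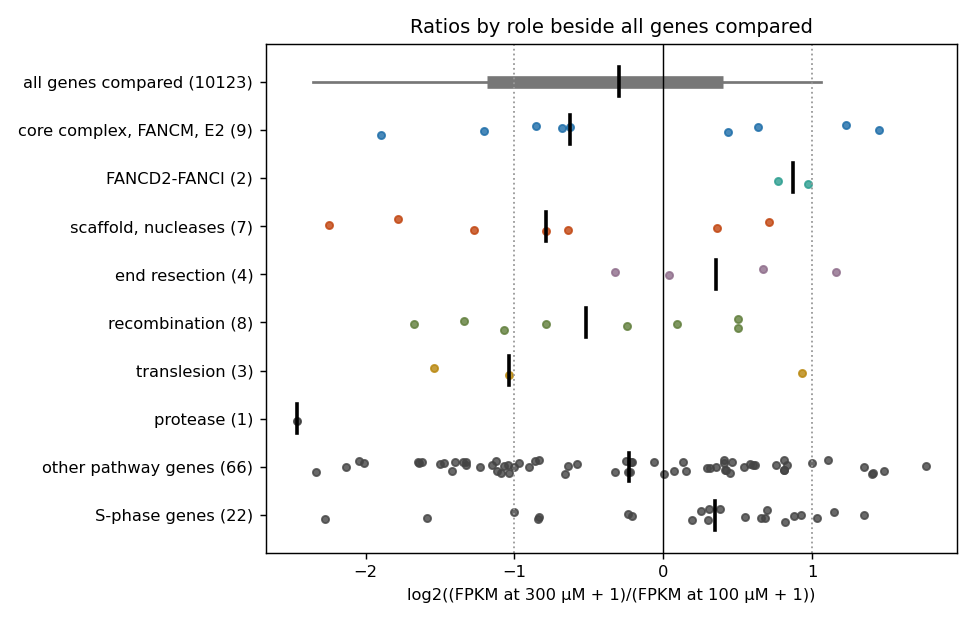
Ratio log2((FPKM at 300 µM + 1)/(FPKM at 100 µM + 1)) of each gene compared, by role, with the number of genes in brackets; ticks are medians, and for all genes the thick bar spans the quartiles and the thin line the 5th to 95th percentile. Most roles hold points on both sides of 0, and only the FANCD2-FANCI pair lies wholly above it among roles with more than 1 gene.

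Other genes of the same pathways were taken from a list of 72, of which 71 were found and 66 compared. At 300 µM 6 of them (9.09%) were higher by 2-fold or more and 23 (34.8%) lower by as much, with a median ratio of -0.23. These shares too lie near those of all genes. On the higher side, Rmi2 of the BLM complex had 2.59 FPKM at 100 µM and 11.2 at 300 µM. Tdp1, which removes topoisomerase 1 crosslinked to DNA, stood at 4.37 and 13.2 FPKM. The ratios of Babam2 (a subunit of the BRCA1-A complex), Cenps (a partner of FANCM) and Rpa3 (a subunit of the single-strand binding protein RPA) were 1.48, 1.41 and 1.35. On the lower side, Fignl1, a regulator of recombination, stood at 19.6 and 3.09 FPKM. Polh, the translesion polymerase eta, stood at 22.8 and 4.92 FPKM. The ratios of Fam111a (a protease that acts on protein obstacles to forks), Rfwd3 (a ubiquitin ligase of RPA), Hrob and Rad52 were -1.65, -1.64, -1.62 and -1.50. Like Sprtn and Rev1, the protease Fam111a and the polymerase Polh were lower, but the rule for naming took the lowest genes of the list. Polk and Poli, translesion polymerases of the same list, had ratios of -0.32 and -0.21, and the translesion member Mad2l2 had 0.93.

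Many of these genes are expressed mainly in S phase, so replication genes were set beside them. Of 22 S-phase genes compared, 3 (13.6%) passed 2-fold upward and 3 (13.6%) downward, beside 6.09% and 29.8% of all genes compared. Their median ratio was 0.34, against -0.30 for all genes, and at equal sums -0.02 against -0.67. The share of cells in S phase at either dose was not measured here, and its part in the results was not tested.

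The members' ratios were then set against properties of their transcripts that had no part in choosing them, 10 in all, from GENCODE release M21. Exon density, the number of exons per kb of transcript, followed the ratio most closely apart from its own variants. Over the 34 genes Spearman's rho was 0.76 and Pearson's r with log2 density 0.77, and with exons per kb of coding sequence rho was 0.83. Over all 10093 compared genes with these properties rho was 0.45, so the relation is one of the whole transcriptome, and whether it is steeper in repair genes was not tested. Over the 66 other pathway genes rho was 0.45. Genes are not independent replicates, the density and FPKM both use transcript length, and the property was singled out after its values were seen, so these are descriptions. Transcript length alone had a rho of -0.28 over the members and -0.41 over all genes, the number of exons 0.31 and 0.06, GC content -0.06 and 0.16, and gene span 0.31 and -0.06.

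The genes at the low end of exon density were all lower at 300 µM. Fancf has 1 exon in 1691 bases of transcript, Xrcc2 has 3 in 3247 bases, Dclre1b 4 in 4345 bases and Sprtn 5 in 4464 bases. These 4 genes, the members in the lowest of 5 equal bins of all genes by exon density, had ratios from -2.46 to -1.67. In that bin 58.6% of all genes were at least 2-fold lower and 2.77% higher. The highest bin held 9 members (Ercc1, Fanca, Fancd2, Fanci, Mre11a, Mus81, Nbn, Rad54l and Ube2t), of which 0 were at least 2-fold lower and 1 higher, with a median of 0.67. In that bin 7.43% of all genes were lower and 11.99% higher. Fanca, Fancd2 and Fanci have 43, 44 and 38 exons.

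Most partners that split also differed in exon density, in pairs picked after their ratios were known. Ercc1 has 7.27 exons per kb and Ercc4 3.16, Mus81 7.74 and Eme1 3.68, Mad2l2 5.21 and Rev3l 2.99, and Fancl 5.14 and Fancb 3.02. In each of these 4 pairs the gene with more exons per kb had the higher ratio. Mad2l2 and Rev1 were an exception: Rev1 has 5.40 exons per kb, more than Mad2l2, yet its ratio was -1.54 against 0.93. Ube2t (6.27 exons per kb, ratio -0.63) and Fance (4.94, ratio -0.86) also lay below genes of like density. Among members without the 5 of lowest density (Fancf, Dclre1b, Xrcc2, Sprtn and Dclre1a), rho was 0.66 over 29 genes. With the density averaged over each gene's coding transcripts it was 0.80 over the 34. Over all genes, rho was 0.33, 0.35 and 0.38 within 3 equal bins of transcript length, short to long. When the trend with exon density was removed from the ratios of all genes, 1 member was higher and 10 were lower, beside 5.17% higher and 27.3% lower among all genes. Fancl (1.12) remained past 2-fold, while Fancc (0.87) and Nbn (0.69) did not. Of the 4 genes of lowest density, Sprtn (-1.80) remained 2-fold lower, and Dclre1b (-0.998), Xrcc2 (-0.89) and Fancf (-0.82) did not. Of the members positive in each of the 7 settings, Fanca (-0.30) and Mus81 (-0.24) turned negative under this removal.

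**Figure D4:**
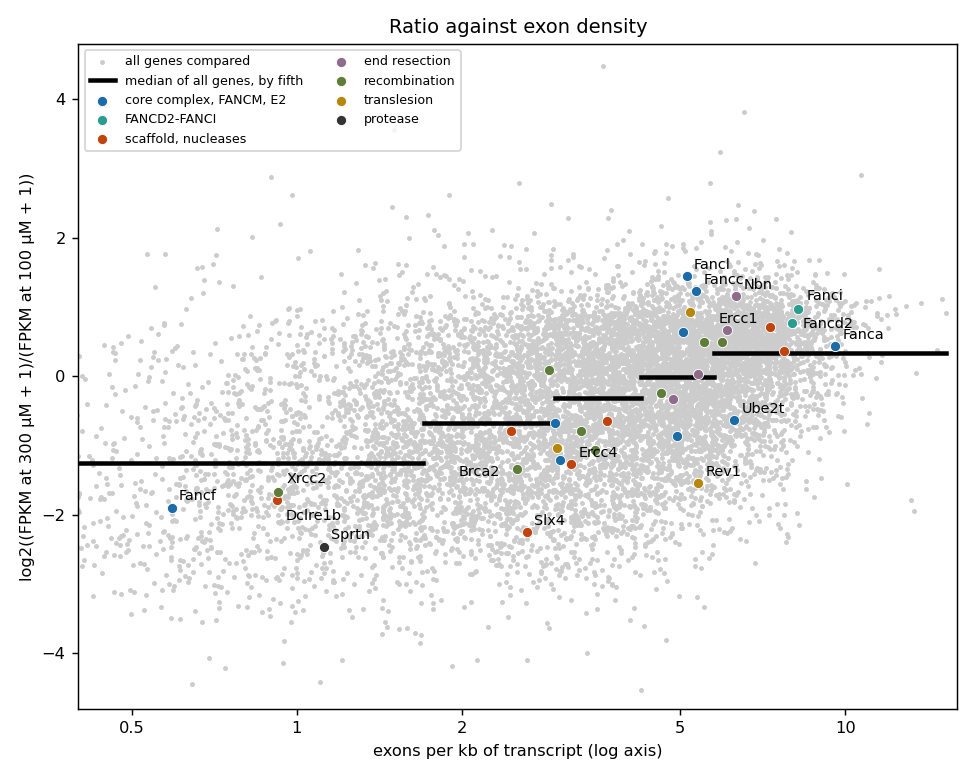
Ratio of each gene (300 µM over 100 µM, pseudocount 1) against exons per kb of transcript on a log axis; grey points are all genes compared (148 under 0.4 exons per kb are not drawn), coloured points the 34 members by role, and black lines the medians of all genes in 5 equal bins of exon density. The medians run from -1.25 in the lowest bin to 0.34 in the highest, and Fancf, Xrcc2, Dclre1b and Sprtn lie at the lower left.

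The direction of most members was the same in each of the 7 settings, while many calls were not. Pseudocounts cannot change a sign, and centring, equal sums and TMM shifted ratios by less than 2-fold. A constant sign therefore says little beyond the size of the ratio itself. Over the 7 settings, 18 of the 36 genes had a negative ratio in each setting, 13 a positive ratio in each and 5 (Fancm, Rbbp8, Rad50, Brip1 and Blm) changed sign. Fan1 and Palb2, both below the mean set for comparison, are among the 18. Among all 10123 genes compared, 6028 had a negative ratio as reported and 4089 a positive one. At least 2-fold lower in each setting were 3 genes, and at least 2-fold higher in each were 0. Fancl and Fancc passed in 6 and Nbn in 5. Counts across the 7 settings were not made for all genes. The intervals of estimated reads, from 20 (Palb2 at 300 µM) to 1471 (Sprtn at 100 µM), placed 12 genes wholly beyond 2-fold lower and 4 wholly beyond 2-fold higher, before any variation between cultures. Such intervals were not computed for all genes, so these counts have no background share beside them. The intervals assume the transcript lengths of GENCODE and reads that are independent molecules. For some members part of the transcript also lies opposite another gene: 10.0% of the words of Sprtn (Gm45709, not analysed here), 12.4% of the words of Fancf (Gas2, ratio 0.17), 11.6% of Fanci (Polg, ratio -1.54), 8.27% of Fanca (Zfp276, ratio -1.29) and 8.27% of Eme1 (Lrrc59, ratio -0.11). Polg and Zfp276 had ratios opposite in sign to those of Fanci and Fanca. On the same strand, the highest share was 9.22%, for Mus81.

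**Figure D5:**
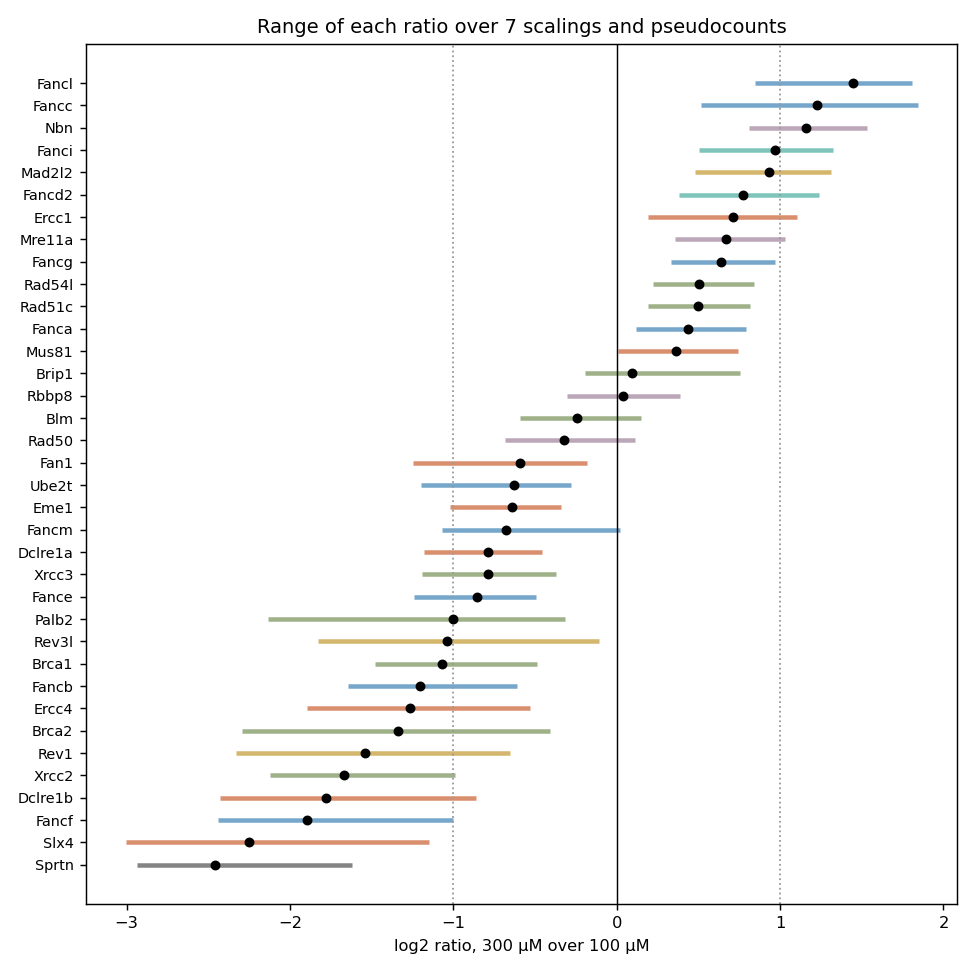
Log2 ratio of each of the 36 genes as reported (black points) and its range over 7 settings (bars, coloured by role); dotted lines mark 2-fold. Sprtn ranges from -2.93 to -1.62 and Fancl from 0.84 to 1.81, and the bars of 5 genes cross 0.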

How the data were processed

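RNA was sequenced as 1 library per dose of formaldehyde. Per the file headers, each library has a table of FPKM values for genes, which the authors deposited with 2 decimals. The submitters' processing notes name RSEM and Bowtie2 with no version; for the annotation and genome build used, nothing is given in the sources. FPKM depends on the total of its library, and RSEM divides reads among isoforms and copies.

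NCBI gene numbers were turned into symbols, 17179 in RefSeq genes of GRCm38.p6 and 6 in GENCODE M21, while 30 stayed unnamed. Promoters are RefSeq's. Transcript properties came from the longest coding transcript per gene in GENCODE M21, which may not be the model the authors used. Shared sequence was the share of 50-base words found in other genes' transcripts.

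The value of 1 read was found from genes with 1 transcript of at most 1500 bases: steps of 54 and 52.5 bases of FPKM times length put 60.6% of 137 and 66.3% of 104 low values no further than 0.12 from a whole read. Counting intervals (95%, Clopper-Pearson) use these steps and cover counting error only.

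Every member is named. Other pathway genes are named if at least 2-fold different at a mean of at least 5 FPKM, at most 6 per direction; 1 further gene of this rule is not reported here. Lists of osteoblast, fibroblast (3 genes, summing to 44.3 and 47.1 FPKM), osteocyte (4 genes, 2.40 and 0.89 FPKM) and other markers served as checks. The members and lists were chosen with earlier results of these data known. The calling steps were tested on simulated data with counting noise only. Changes of at least 3-fold were planted in genes of at least 5 FPKM. The simulation held no planted changes in lower genes, no trend with exon density and no variation between cultures, so it does not cover these. Software was matplotlib 3.10.9, scipy 1.17.1, pandas 2.3.3 and numpy 2.4.6 under Python 3.11.15.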

Additional observations from a re-analysis of the deposited data

How the results depend on the processing

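With 1 library per dose, calls rest on the scale. Of the members, 3 were at least 2-fold higher and 11 lower as reported. With the share of all genes in brackets, higher members numbered 5 with a pseudocount of 0.1 (8.23%), 0 with a pseudocount of 5 (2.55%), 0 of 5 at a mean of at least 10 FPKM (6.70%), 7 after centring (14.5%), 8 with TMM scaling, a shift of 0.40 (17.1%), 5 with the trend of length and GC content removed (5.21%), 1 with the exon density trend removed, added after seeing the data (5.17%), 9 at 1.5-fold (18.8%) and 0 at 3-fold (1.22%). Lower members numbered 3 with a pseudocount of 5 (16.1%), 1 at a mean of at least 10 FPKM (21.4%), 7 after centring (22.3%), 17 at equal sums (40.5%), 17 at 1.5-fold (41.6%) and 5 at 3-fold (16.3%), of 34 except where given. Medians follow, with that of all genes in brackets. The median over all compared members, -0.48 (-0.30), became -0.25 with a pseudocount of 5 (-0.20) and -0.61 without the filter (-0.014). It was 0.36 over the 5 left by that higher filter (-0.016), -0.18 after centring (0), -0.85 at equal sums (-0.67) and -0.12 with TMM (0.048). It was 0.060 with the length and GC trend removed (-0.31) and -0.63 with the exon density trend removed (-0.36). For the other pathway genes, brackets again hold the share of all genes, and counts are of 66 except where given. The 6 higher (6.09%) became 3 with a pseudocount of 5 (2.55%) and 2 of 30 at a mean of at least 10 FPKM (6.70%). They became 12 after centring (14.5%), 13 with TMM (17.1%), 14 at 1.5-fold (18.8%) and 1 at 3-fold (1.22%). The 23 lower (29.8%) became 8, 10 of 30, 14 and 13 in the first 4 of these settings (16.1%, 21.4%, 22.3% and 22.6%). With the length and GC trend removed they became 13 (26.9%), and at 3-fold 7 (16.3%). The remaining settings moved these counts by at most 1.5 times. No member that passed 2-fold as reported changed sign in any setting run. Pseudocounts cannot change a sign and the rescalings shifted ratios by less than 2-fold, so only the removal of a trend could have changed one. Of the single members' values, 96 stayed within 0.5 of the width of their counting interval and 142 moved further. No paired analysis was possible because each dose has 1 library. Other limits are the low levels of most members, the unknown strand and gene models, and the absence of replicates, which leaves variation between cultures unmeasured.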

Other observations

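Some partners of the members outside the list of 36 are given here, chosen after their values were seen. Usp1 and Wdr48, which encode the enzyme and cofactor that remove ubiquitin from FANCD2, had 37.5 and 14.7 FPKM at the lower dose and 16.4 and 6.18 FPKM at the higher. Both were at least 2-fold lower (ratios -1.15 and -1.12), while their substrate gene Fancd2 had 0.77. Bard1, the obligate partner of BRCA1, had -1.04, close to the -1.07 of Brca1. Faap100, which joins FANCB and FANCL in the catalytic module, stood at 10.9 and 5.37 FPKM (ratio -0.90), on the side of Fancb. Cenps and Cenpx, the histone-fold pair that binds FANCM, had 1.41 and 0.76, whereas Fancm had -0.68. Faap24, another partner of FANCM, had -0.84, on the side of Fancm.

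Rmi1 and Rmi2, which bind each other in the BLM complex, lay far apart. Rmi1 had 6.49 FPKM at 100 µM and 1.99 at 300 µM (ratio -1.32), and Rmi2 had 2.59 and 11.2 FPKM (ratio 1.76). Both have 2 exons and similar exon densities, 0.48 and 0.53 exons per kb, so Rmi2 is an exception to the relation of exon density with the ratio.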
